A study of Mus musculus with 50 samples.

Results

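The hearts of FVB mice, a wild-type inbred strain, were compared between 10 and 8 months of age. The 10 libraries, 5 per age, were picked by the strain and age in their titles, out of 50 libraries in the series, and all 15129 of the 54532 listed genes that passed a filter on low counts were tested. The whole series held FVB mice and Tgαq*44 mice at 4, 8, 10, 12 and 14 months, with 5 mice per strain and age. The Tgαq*44 line is a transgenic on the same background, with an always-active Gαq expressed in cardiomyocytes only, and it develops slow heart failure. RNA came from the apex of the left ventricle of female mice and was read by polyA-selected RNA-seq. The FVB mice carry no transgene and received no treatment, so the 2 groups described here share strain, sex, tissue and protocol and differ by label only in age. The 8-month-old libraries held 9998763 to 15945956 counts (median 12574536) and the 10-month-old libraries 13100570 to 17644264 counts (median 15657782). The run in which each library was sequenced is not given in the sources used here, so age and sequencing run cannot be told apart.

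The adult ventricle is made mostly of cardiomyocytes by RNA mass, which burn fatty acids as their main fuel, and it also holds fibroblasts, endothelial cells, pericytes and macrophages. The nuclear receptor PPARα drives the fatty acid oxidation genes of the heart. When the ventricle is loaded it re-expresses genes of the foetal heart, of which skeletal α-actin (Acta1) and atrial natriuretic peptide (Nppa) are the best known. In bulk tissue, fewer cells of a type and less RNA per cell cannot be told apart.

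Between 8 and 10 months 717 genes changed at an adjusted p under 0.05 (4.74% of those tested), 387 of them higher (2.56%) and 330 lower (2.18%) at 10 months, by edgeR's quasi-likelihood test with Benjamini-Hochberg adjustment over all genes tested. DEGs, defined as such genes with more than a doubling or halving, numbered 77 (0.509%), with 38 higher (0.251%) and 39 lower (0.258%). The changes were mostly small, with a median absolute log2 fold change of 0.58 among the 717 genes, of which 356 moved by more than 1.5-fold. The median log2 fold change of all genes was -0.01. The 5 mice of one age lay wholly above or below the 5 of the other in 720 genes (4.76%), higher at 10 months in 299 (1.98%) and lower in 421 (2.78%). Without mouse 2 of the 8-month group 368 genes were called, without mouse 3 of the 10-month group 417, and without mouse 5 of the 10-month group 363. The DEGs numbered 45 without mouse 2 of 8 months and 43 without mouse 5 of 10 months. The volcano plot shows the spread of both directions.

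**Figure D1:**
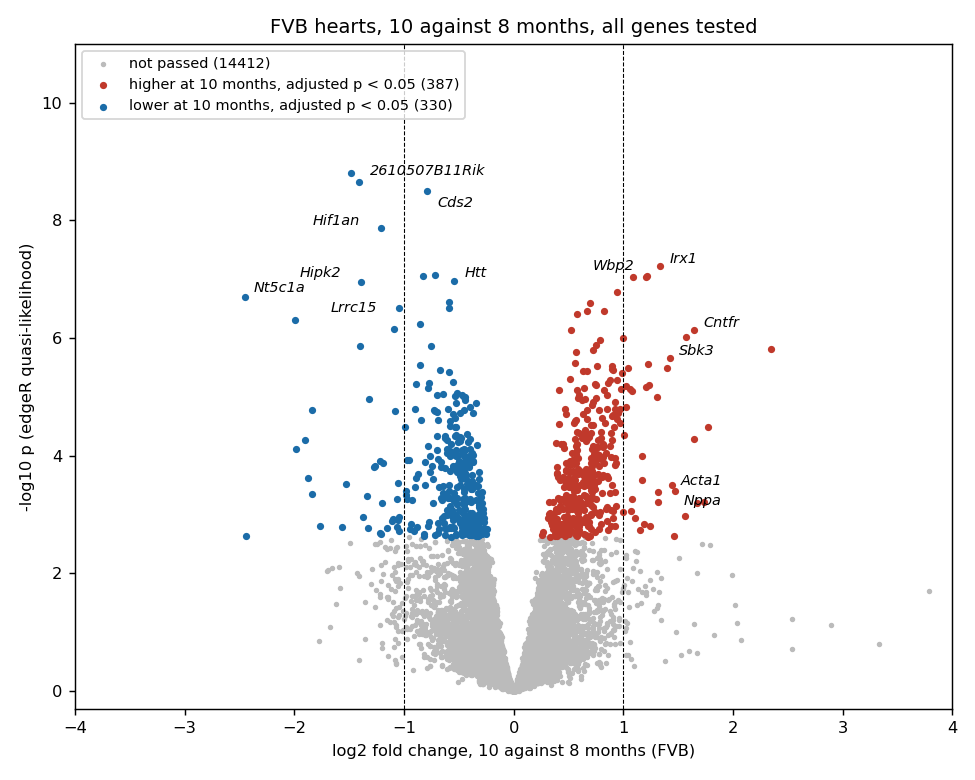
Log2 fold change at 10 against 8 months in FVB hearts (x axis) against the -log10 of the unadjusted p (y axis) for the 15129 genes tested, 1 point per gene, from the edgeR quasi-likelihood fit. Coloured points are the 387 higher and 330 lower genes at an adjusted p under 0.05, dashed lines stand at a log2 fold change of -1 and 1, and the points highest on the y axis are lower genes, with 2610507B11Rik and Cds2 among them.

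On the first principal component of the 10 libraries, with 29.4% of the variance, the ages overlapped. On the second component, with 15.9%, the 8-month mice lay between -29.1 and -1.63 and the 10-month mice between 9.02 and 22.4, so the ages separated there. Libraries also differed in how their log2 CPM deviated with the GC content of transcripts. The Spearman correlation across genes of this deviation with GC content was -0.514, -0.742, 0.32, 0.0576 and 0.671 in mice 1 to 5 of 8 months. In mice 1 to 5 of 10 months it was -0.415, 0.497, 0.553, -0.443 and 0.476, and the ranges overlapped. The first component had the same sign as this correlation in every mouse but mouse 3 of 8 months (0.32 and -0.695). Mouse 2 of 8 months was the lowest on both (-0.742 and -47). Genes are not independent replicates, and these correlations are given as a description. The mitochondrially encoded share of counts was 26% ± 4.75 (SD, n = 5) at 8 months and 24.3% ± 2.2 (SD, n = 5) at 10 months.

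Among genes with a symbol, a mean of at least 1 CPM (counts scaled to a fixed library total) and no overlap between the groups, the largest fall was that of Nt5c1a, which encodes a cytosolic nucleotidase that forms adenosine from AMP in muscle. Nt5c1a (ENSMUSG00000054958, chromosome 4, 123201504 to 123216275, plus strand, GRCm38.p6) stood at 11.2, 15.5, 17.7, 15.6 and 18 CPM in the 5 mice of 8 months and at 2.3, 6.35, 1.85, 2.77 and 0.687 CPM in the 5 mice of 10 months. Every 10-month mouse lay below every 8-month mouse. The log2 fold change was -2.45 ± 0.40 (SE, adjusted p = 0.000217), the lowest among all genes called.

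Hipk2 encodes a nuclear serine/threonine kinase that binds homeodomain proteins and p53. Hipk2 (ENSMUSG00000061436, chromosome 6, 38694390 to 38876165, minus strand) read 116, 121, 115, 112 and 126 CPM at 8 months and 34.9, 54.3, 43.5, 47.6 and 43.9 CPM at 10 months. The 8-month mice lay close together and far above the 10-month mice, and the level was 2.63-fold lower at 10 months (log2 -1.40 ± 0.22, adjusted p = 0.00014). Hif1an encodes the asparagine hydroxylase FIH, which restrains hypoxia-inducible factor when oxygen is present. Hif1an (ENSMUSG00000036450, chromosome 19, 44562850 to 44576274, plus strand) read 82.4, 74.9, 85.5, 65.4 and 86.7 CPM at 8 months and 31, 46.4, 34.3, 34.5 and 24.5 CPM at 10 months. The groups did not overlap, and the log2 fold change was -1.21 ± 0.18 (adjusted p = 5.16e-05).

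The fatty acid receptor gene Ppara was lower as well. Ppara was at 21.3, 29.3, 23.8, 21.9 and 23.6 CPM at 8 months and at 12.6, 15.6, 10.8, 17.3 and 6.74 CPM at 10 months. The groups did not overlap, and mouse 5 of 10 months was lowest (log2 -0.93 ± 0.25, adjusted p = 0.0199). The call rested on single mice, since the adjusted p rose to at most 0.0954 without mouse 2 of 8 months, mouse 3 of 10 months or mouse 5 of 10 months. Lrrc15, a leucine-rich repeat membrane protein known from activated fibroblasts, read 44.2, 42.3, 51.4, 44.2 and 41.7 CPM at 8 months and 21.8, 28.3, 21.8, 26 and 10.5 CPM at 10 months. All 8-month mice were above all 10-month mice (log2 -1.05 ± 0.18, adjusted p = 0.000258).

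The other genes named by this rule that fell were less abundant. They were Carmn, a non-coding RNA at the miR-143 and miR-145 locus (log2 -1.41), Dbndd1 (-1.32), the cadherin Cdh20 (-1.19), Nckap5 (-1.09), the clustered protocadherin Pcdhgc4 (-1.07), the MYC target Cdca7 (-0.98) and the extracellular matrix protein Sned1 (-0.97). Nckap5 showed the least spread at 8 months, with 8.93, 9.1, 9.34, 8.67 and 8.77 CPM against 4.32, 5.03, 3.7, 5.01 and 2.96 CPM at 10 months. Pcdhgc4 shares its constant exons with neighbouring protocadherins, so its own counts are uncertain. Pcdhgc4 lost its call without any one of mice 4 and 5 of 8 months and mice 1 and 3 of 10 months (adjusted p up to 0.0804). Cdca7 lost it without mouse 4 of 8 months or mouse 5 of 10 months (up to 0.0651), and Cdh20 without mouse 1 of 8 months (0.0509).

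Several other genes also fell with little spread. These genes were chosen after their values were seen. Cds2, an enzyme that makes CDP-diacylglycerol for phosphoinositide synthesis, read 246, 251, 265, 269 and 263 CPM at 8 months and 140, 168, 152, 151 and 136 CPM at 10 months. No mouse overlapped, and the log2 fold change was -0.79 ± 0.11 (adjusted p = 1.6e-05). The uncharacterised coding gene 2610507B11Rik and the provisional gene Gm10524 shared that adjusted p, the smallest of all genes. The former read 444, 507, 502, 491 and 498 CPM against 174, 196, 176, 231 and 141 CPM (log2 -1.41 ± 0.19). Here too the groups stood apart. Tsc1, whose product restrains mTORC1, fell by 0.83 on the log2 scale (42.3, 39.7, 37.2, 39.4 and 38.2 CPM against 19.3, 28.9, 22.8, 22.2 and 17.6 CPM), and the huntingtin gene Htt fell by 0.55 (45.3, 46.3, 48, 48.5 and 51.3 CPM against 33, 34.7, 31.6, 33.5 and 31.1 CPM). Neither gene had overlapping groups either.

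**Figure D2:**
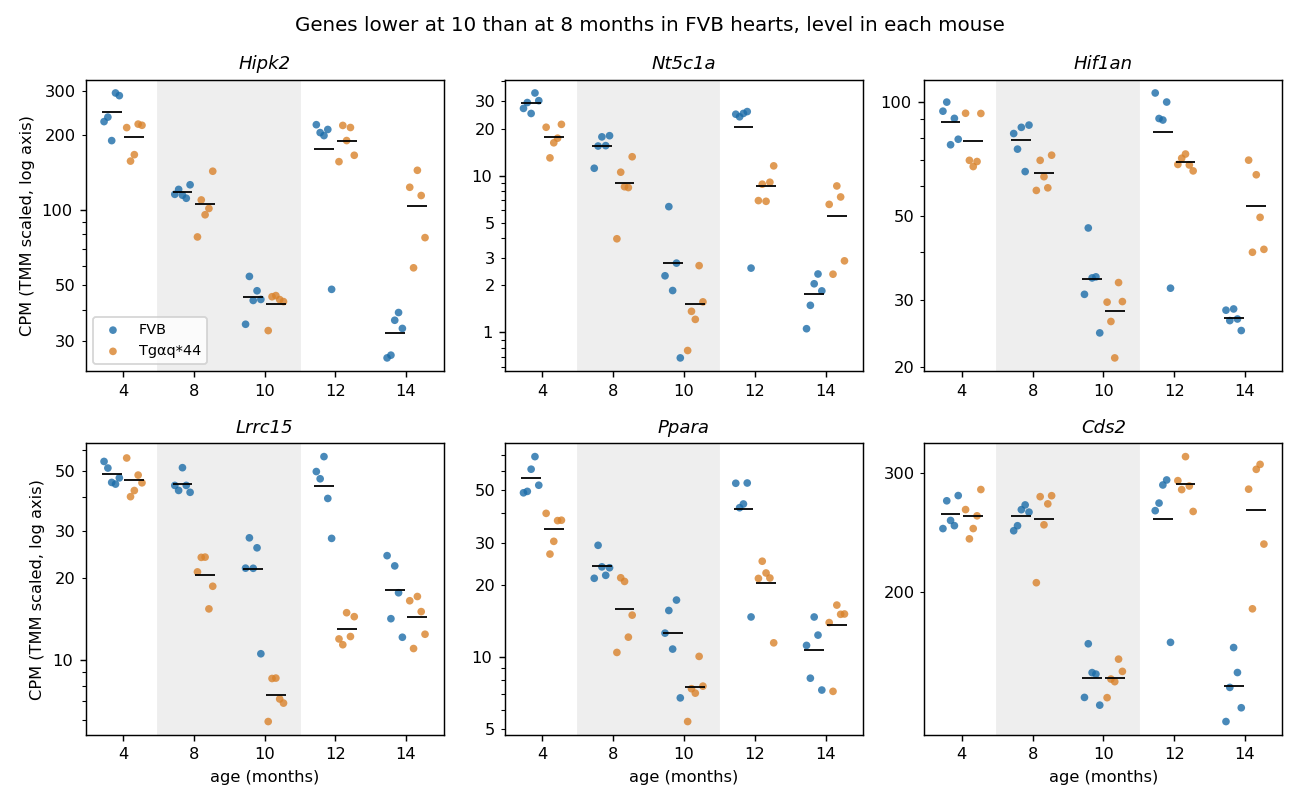
CPM on a log axis for Hipk2, Nt5c1a, Hif1an, Lrrc15, Ppara and Cds2 in every FVB and Tgαq*44 mouse at 4, 8, 10, 12 and 14 months, with 1 point per mouse, black bars for the group means and a grey band over 8 and 10 months. In FVB mice the 10-month points lie below the 8-month points in all 6 genes, and at 12 months 4 mice are high and mouse 5 is low, with Hipk2 at 199 to 220 CPM in the 4 mice and 48.2 CPM in mouse 5.

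Of the genes that rose, the largest fold change among those named by the rule was that of Cntfr, the ciliary neurotrophic factor receptor, a low-abundance gene. Cntfr stood at 1.23, 0.877, 1.56, 1.11 and 2.1 CPM at 8 months and at 2.97, 3.65, 5.47, 3.37 and 6.74 CPM at 10 months. The groups did not overlap, and the log2 fold change was 1.65 ± 0.29 (adjusted p = 0.000431). The other genes named by this rule that rose included Fstl3, an activin and myostatin inhibitor (log2 1.57), parathyroid hormone-related protein Pthlh (1.56), Ecm1 (1.40), the proteoglycan Spock2 (1.30), extracellular superoxide dismutase Sod3 (1.22) and the phospholipid transfer protein Pltp (1.21). Pthlh was low in every mouse, at most 3.14 CPM, and lost its call without any one of mice 2, 3 and 4 of 8 months and mouse 3 of 10 months (adjusted p up to 0.135).

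Ecm1, a secreted matrix glycoprotein, read 32.2, 21.7, 38.8, 36.3 and 54.2 CPM at 8 months and 70.4, 89.4, 116, 70.5 and 140 CPM at 10 months. Sod3 read 28.2, 18, 35.2, 29.4 and 42.1 CPM against 49.2, 79.9, 94.5, 47.1 and 88.1 CPM. In both genes mouse 2 was the lowest and mouse 5 the highest of the 8-month group, and all 10-month mice lay above that group (adjusted p = 0.00113 and 0.00109). Sod3 was the 1 gene called of 19 antioxidant and NRF2 target genes, whose median was -0.03, where 4.74% of all genes were called.

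Wbp2, a WW domain-binding coactivator, was the most abundant of the 12 named genes that rose. Wbp2 (ENSMUSG00000034341, chromosome 11, 116078573 to 116086995, minus strand) read 103, 62.6, 99.1, 92.7 and 109 CPM at 8 months and 177, 213, 253, 181 and 257 CPM at 10 months. The 10-month mice were all higher, by 2.31-fold (log2 1.21 ± 0.19, adjusted p = 0.000139). The Iroquois homeobox factor Irx1 read 4.91, 4.28, 6.87, 6.46 and 7.14 CPM against 13, 13.6, 17.3, 12.6 and 19.3 CPM. Again no mouse overlapped (log2 1.34 ± 0.21, adjusted p = 0.000139). Plvap, which forms the diaphragms of endothelial fenestrae and caveolae, was 2.35-fold higher, and Itgae, the αE integrin of tissue lymphocytes, was higher by 1.32 on the log2 scale at no more than 2.01 CPM in any mouse. Itgae lost its call without mouse 2 or 5 of 8 months or mouse 3 of 10 months (adjusted p up to 0.0662).

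Sbk3 and Sbk2 encode related SH3-binding domain kinases of striated muscle and are neighbours on the minus strand of chromosome 7, Sbk3 at 4965260 to 4971168 and Sbk2 at 4940512 to 4964406. Sbk3 read 1.34, 1.54, 2.14, 0.595 and 1.71 CPM at 8 months and 3.18, 3.65, 5.39, 3.59 and 4.33 CPM at 10 months (log2 1.43 ± 0.27, adjusted p = 0.000922). Sbk2, looked at after its values were seen, read 8.59, 8.45, 9.59, 8.08 and 12.6 CPM against 13, 19.8, 17.8, 14.4 and 13 CPM (log2 0.71 ± 0.18, adjusted p = 0.0101). Neither gene had overlapping groups.

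More abundant genes that rose, also chosen after their values were seen, included the main triglyceride lipase of the heart, Pnpla2. Pnpla2 stood at 354, 236, 434, 434 and 477 CPM at 8 months and at 696, 985, 974, 546 and 1260 CPM at 10 months (log2 1.20 ± 0.24, adjusted p = 0.00166). The groups did not overlap. The latent TGFβ-binding protein Ltbp4 (log2 1.08), the TGFβ coreceptor endoglin, Eng (1.01), the desmosome protein plakoglobin, Jup (0.98), the ETS factor Etv5 (0.95), the amino acid transporter Slc7a5 (1.06) and salt-inducible kinase Sik1 (1.17) rose as well. Sik1 lost its call without mouse 5 of 10 months, where it read 190 CPM (adjusted p = 0.069 without it).

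Of the 11 foetal and hypertrophic genes tested, 3 rose (Acta1, Nppa and Xirp1), none fell, and the list median was 0.27 on the log2 scale, where 2.56% of all genes rose and 2.18% fell. Promoters are shown for Acta1 and Nppa, which had the largest log2 fold changes of the list, as the 250 bases before each RefSeq transcription start in GRCm38.p6, on chromosome 8 at chr8:123894776-123895025 (minus strand) for Acta1 and at chr4:148000472-148000721 (plus strand) for Nppa. Capitals mark matches on the printed strand to a CArG box, the site of serum response factor, to CATTCC, the core of TEAD sites, and to TATAAA. The letters GATAAG, bound by the GATA factors of the heart, were searched too and had no match. Both strands were searched, and matches of different motifs did not overlap.
Acta1: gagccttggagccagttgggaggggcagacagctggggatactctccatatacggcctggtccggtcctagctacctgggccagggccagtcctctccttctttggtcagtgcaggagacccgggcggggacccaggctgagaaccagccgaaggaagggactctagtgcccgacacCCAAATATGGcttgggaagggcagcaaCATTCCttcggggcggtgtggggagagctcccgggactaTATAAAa
Nppa: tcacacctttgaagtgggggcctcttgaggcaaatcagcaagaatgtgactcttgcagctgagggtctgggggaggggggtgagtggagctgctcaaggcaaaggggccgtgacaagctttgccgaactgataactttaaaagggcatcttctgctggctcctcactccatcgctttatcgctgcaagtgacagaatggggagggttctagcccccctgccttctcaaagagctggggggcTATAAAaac
In Acta1 the CArG box lay 73 to 64 bases before the start, CATTCC 46 to 41 bases and TATAAA 7 to 2 bases before it, and in Nppa TATAAA lay 9 to 4 bases before the start. Of 32851 RefSeq promoter windows of that length, 1.47% held a CArG box, 12.6% CATTCC, 6.55% GATAAG and 12.4% TATAAA. A match describes the letters and not a bound site.

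Acta1 (ENSMUSG00000031972), which encodes the actin of skeletal and foetal cardiac muscle, read 619, 406, 638, 634 and 1180 CPM at 8 months and 1070, 1460, 2140, 1140 and 3640 CPM at 10 months. Mouse 5 of the 8-month group overlapped with the lower 10-month mice, and mouse 5 of the 10-month group was the highest. The mean rose from 696 ± 289 to 1892 ± 1065 CPM (SD, n = 5 each), a 2.72-fold change (log2 1.44 ± 0.37, adjusted p = 0.0134). Nppa (ENSMUSG00000041616) read 68, 20.1, 30.4, 28.3 and 55.3 CPM at 8 months and 63.8, 113, 66.6, 70 and 245 CPM at 10 months. Mouse 1 of 8 months lay above 2 of the 10-month mice, and mouse 5 of 10 months stood far above the rest (log2 1.47 ± 0.38, adjusted p = 0.0156). Xirp1, an actin-binding protein of the intercalated disc, read 317, 345, 451, 423 and 511 CPM against 507, 683, 666, 570 and 796 CPM (log2 0.65 ± 0.17, adjusted p = 0.0121). Only mouse 5 of 8 months overlapped, and only with mouse 1 of 10 months.

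Each of these 3 calls rested on single mice. Without mouse 5 of 10 months the log2 fold change was 1.06 for Acta1 (adjusted p = 0.108) and 0.96 for Nppa (adjusted p = 0.163). Acta1 lost its call also without mouse 2 of 8 months, Nppa without mouse 2 or 4 of 8 months, and Xirp1 without mouse 1 or 2 of 8 months or mouse 5 of 10 months (adjusted p up to 0.0647). Other members did not pass: Nppb averaged 259 CPM at 8 months and 295 CPM at 10 months (adjusted p = 0.83), Myh7, the slow β-myosin, 756 and 980 CPM (adjusted p = 0.267) and Ankrd1 1975 and 1876 CPM (adjusted p = 0.894).

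Nppa and Sbk2 were also on the list of 9 atrial cardiomyocyte markers, of which 7 were tested, 2 rose, none fell, all 7 values were positive, and the median log2 fold change was 0.92. The summed level of the 9 markers was 63.9 to 109 CPM in the 8-month mice and 108 to 278 CPM in the 10-month mice. This sum is in CPM without normalization factors, unlike the values of single genes. Nppa made up much of this sum. Of the markers with little ventricular background, Myl4 was at a mean of 1.25 CPM at 8 months and 2.35 CPM at 10 months (adjusted p = 0.398), Bmp10 at 0.559 and 1.32 CPM (adjusted p = 0.17) and Mybphl at 0.247 and 0.872 CPM (adjusted p = 0.06). No atrial marker was at 0 in all mice. These 3 means were higher at 10 months, without passing the test. The part of atrial RNA in the levels of Nppa, Sbk2 and Sbk3 was not tested.

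**Figure D3:**
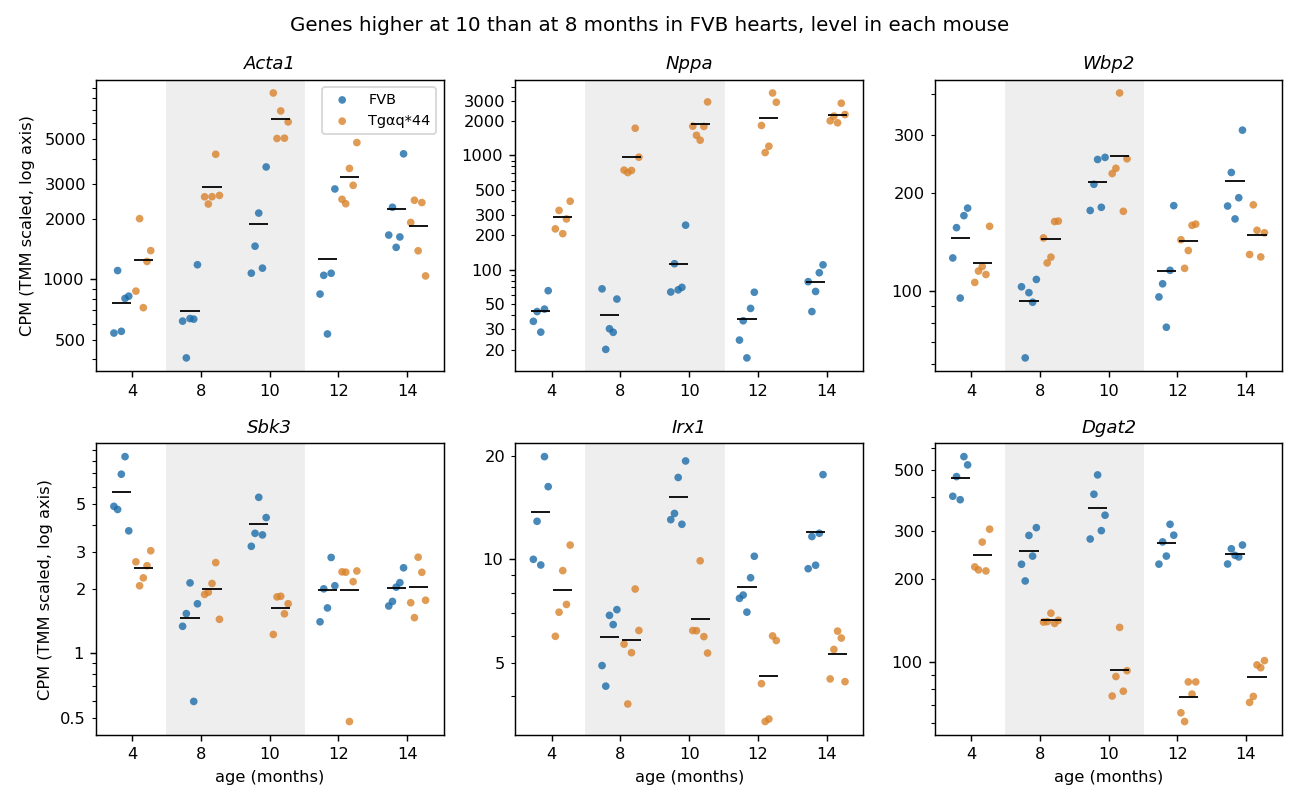
CPM on a log axis for Acta1, Nppa, Wbp2, Sbk3, Irx1 and Dgat2 in every FVB and Tgαq*44 mouse at 4, 8, 10, 12 and 14 months, with 1 point per mouse, black bars for the group means and a grey band over 8 and 10 months. FVB 10-month points lie above the 8-month points in Wbp2, Sbk3 and Irx1 and overlap with them in Acta1, Nppa and Dgat2, while in Tgαq*44 mice Dgat2 falls from a median of 140 CPM at 8 months to 88.5 CPM at 10 months.

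Over 26 pathway lists, 603 members were tested, and 25 rose (4.15%) while 11 fell (1.82%), against 2.56% and 2.18% of all genes. At least 1 member was called in 20 lists. The list of 32 fatty acid oxidation genes, which holds Ppara, had a median of -0.01. The 64 nuclear oxidative phosphorylation genes held 1 call, Ndufa8 of complex I (log2 0.50, adjusted p = 0.034), which was lost without mouse 1 or 2 of 8 months or mouse 1, 3 or 5 of 10 months (adjusted p up to 0.119) or with a GC content offset (0.0668), and the list median was -0.01. None of the 10 tested mitochondrially encoded genes was called, and their median was -0.12.

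Of 25 glucose uptake and glycolysis genes, 4 rose and none fell, where 2.56% of all genes rose and 2.18% fell. The list median was -0.08. The kinase Pdk2, which inhibits pyruvate dehydrogenase, was at 603, 412, 589, 636 and 675 CPM at 8 months and at 922, 1110, 1140, 878 and 1470 CPM at 10 months. All 10-month mice were higher (log2 0.92 ± 0.20, adjusted p = 0.00365). Hexokinase 1, Hk1, rose by 0.56 on the log2 scale and the phosphoglycerate mutases Pgam1 and Pgam2 by 0.51 and 0.50. Pgam2 lost its call when any one of 8 mice was left out (all but mouse 5 of 8 months and mouse 4 of 10 months, adjusted p up to 0.22), Hk1 without mouse 1 or 2 of 8 months or mouse 3 or 5 of 10 months (up to 0.154), and Pgam1 without mouse 1 of 8 months (0.0535).

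Of 18 genes of fatty acid and triglyceride synthesis, 3 rose, with a list median of 0.03. Dgat2, which catalyses the last step of triglyceride synthesis, read 227, 197, 289, 243 and 308 CPM at 8 months and 280, 408, 480, 301 and 342 CPM at 10 months (log2 0.52 ± 0.14, adjusted p = 0.0225). The groups overlapped. Acacb, which makes the malonyl-CoA that restrains fatty acid entry into mitochondria, was higher by 0.36 and the lipogenic factor Srebf1 by 0.61. Acacb and Dgat2 each lost the call without any one of 5 mice, including mice 1 and 2 of 8 months and mice 2 and 3 of 10 months in both genes, mouse 3 of 8 months for Acacb and mouse 4 of 8 months for Dgat2 (adjusted p up to 0.211 and 0.136). With a GC content offset Acacb stood at 0.23 (adjusted p = 0.137). Srebf1 lost it without mouse 1, 2 or 4 of 8 months or mouse 2, 3 or 5 of 10 months (up to 0.0849). Of 20 cholesterol synthesis genes, only the lanosterol demethylase gene Cyp51 was called, where 4.74% of all genes were called. Cyp51 fell by 0.43, and this call was lost without mouse 1 of 8 months or mouse 3 or 5 of 10 months (up to 0.0731).

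Among 36 collagens and interstitial matrix genes, 3 rose and 2 fell, with a median of 0.04, where 2.56% of all genes rose and 2.18% fell. Ctgf, a matricellular protein induced by stretch and TGFβ, read 58.9, 73.2, 73.8, 84.9 and 95.8 CPM at 8 months and 88.1, 140, 144, 122 and 238 CPM at 10 months. Only mouse 1 of 10 months overlapped (log2 0.92 ± 0.22, adjusted p = 0.00837), and without mouse 5 of 10 months the adjusted p was 0.0847. The collagen receptor subunit Itga11 was higher by 0.72 and the proteoglycan Fmod by 1.15, at no more than 3.44 CPM in any mouse. The proteoglycan lumican, Lum, was at 243, 322, 233, 299 and 264 CPM at 8 months and at 176, 188, 190, 231 and 201 CPM at 10 months. The groups did not overlap (log2 -0.47 ± 0.11, adjusted p = 0.0065). Col14a1, a collagen that binds fibril surfaces, fell by 0.56. Itga11 lost its call without mouse 2 of 8 months or mouse 2, 3 or 5 of 10 months (up to 0.113), Col14a1 without mouse 3 or 5 of 8 months or mouse 2, 3 or 5 of 10 months (up to 0.085) or with a GC content offset (0.0603), and Fmod without any one of 8 mice (all but mouse 5 of 8 months and mouse 3 of 10 months, up to 0.113).

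The laminins of the basement membrane split. Of 15 basement membrane genes, Lamb2 rose by 0.49 while Lama4 fell by 0.41 and Lamb1 by 0.52, with a list median of -0.14. Among all genes 2.56% rose and 2.18% fell. Lama4, an endothelial laminin chain, read 78.1, 70.1, 72.3, 79.9 and 76.5 CPM against 62.6, 55, 56.4, 53.1 and 56.2 CPM (adjusted p = 0.0077). Its groups did not overlap, and with the GC content and length offset its log2 fold change was -0.29 (adjusted p = 0.0575). With a GC content offset Lamb2 stood at 0.32 (adjusted p = 0.0424). Lamb2 lost its call without mouse 2 of 8 months (0.069) and Lamb1 without mouse 3 or 5 of 10 months (up to 0.0936). Of 20 angiogenic genes, the VEGF receptor gene Kdr fell, at 156, 176, 156, 177 and 163 CPM against 112, 126, 117, 114 and 94 CPM (log2 -0.56 ± 0.14, adjusted p = 0.00847). All 10-month mice were lower. The peptide ligand Apln fell by 0.81 and Vegfb rose by 0.59. Apln lost its call without mouse 5 of either age (up to 0.0691), and Vegfb without mouse 1 or 2 of 8 months or mouse 2, 3 or 5 of 10 months (up to 0.134).

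Stress and signalling lists mostly held 1 call each, a share near the 4.74% called among all genes. Jun was the 1 gene called of 25 immediate early genes, at 45.1, 44.9, 47.9, 50 and 65 CPM at 8 months and 52.6, 89.6, 101, 88.5 and 124 CPM at 10 months. Mouse 5 of 8 months overlapped with mouse 1 of 10 months (log2 0.85 ± 0.18, adjusted p = 0.00246). The list median was 0.46, and 23 of the 25 genes had a positive log2 fold change, with Fos at 1.35 ± 0.51 (adjusted p = 0.133) and Nr4a1 at 1.21 ± 0.51 (adjusted p = 0.194). The sarcomere cochaperone Bag3 was the only call among 22 heat shock genes, at 244, 203, 294, 313 and 365 CPM against 424, 522, 554, 418 and 696 CPM (log2 0.88 ± 0.20, adjusted p = 0.0057). Its groups did not overlap.

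Single calls in other lists were smaller, and their shares were again near or below the 4.74% called among all genes. The clock repressor Cry2 (log2 0.45, 1 of 19 clock genes, list median 0.23), glutamine synthetase Glul (0.56, 1 of 19 glucocorticoid response genes), the endoplasmic reticulum stress protein Herpud1 (0.50, 1 of 20), the stress-induced sestrin Sesn2 (0.69, 1 of 17 senescence and p53 targets) and the ribosomal protein gene Rps2 (0.37, 1 of 38) rose. Cry2 and Glul lost their calls without any one of 4 mice (mice 2 of 8 months and 2 and 5 of 10 months in both, with mouse 3 of 10 months for Cry2 and mouse 3 of 8 months for Glul, adjusted p up to 0.116 and 0.16), and Cry2 also with the GC content and length offset (0.0587). Herpud1 lost it without mouse 2 of 8 months or mouse 3 or 5 of 10 months (up to 0.0831). Sesn2 lost it without mouse 1 or 2 of 8 months or mouse 2, 3, 4 or 5 of 10 months (up to 0.148), and Rps2 without any one of 8 mice (all but mouse 5 of 8 months and mouse 4 of 10 months, up to 0.219).

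The L-type calcium channel gene Cacna1c (log2 -0.39, 1 of 17 calcium handling genes) and the mineralocorticoid receptor gene Nr3c2 (-0.57, 1 of 12) fell. Among all genes 4.74% were called. Cacna1c lost its call without mouse 2 of 8 months or mouse 1 or 5 of 10 months (up to 0.0691), and with an offset for GC content and length its log2 fold change was -0.21 (adjusted p = 0.0892). Nr3c2 lost its call without any one of 8 mice (all but mouse 5 of 8 months and mouse 4 of 10 months, up to 0.148).

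No member was called among 41 interferon response genes, 15 MHC genes, 28 cytokines and chemokines, 13 complement and acute phase genes and 27 cell cycle genes. The cell cycle list had a median of -0.21, with 23 of 27 values negative, and its lowest adjusted p was 0.06, that of the helicase subunit Mcm5. Of the genes picked because the study names them, Itga11 was called and the others did not pass. Gdf15, a stress-induced cytokine, stood at 6.47, 7.35, 6.29, 6.63 and 16.5 CPM at 8 months and at 8.92, 18, 12.7, 7.56 and 38 CPM at 10 months (adjusted p = 0.228). Both groups overlapped, and mouse 5 was the highest at either age. Cdkn1a (log2 0.42), Egr2 (0.96), Egr3 (0.88), Timp1 (-0.31), Sfrp2 (0.54), Cilp (-0.10) and Gnaq (-0.29) did not pass either.

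Of the 76 called genes among those named, 39 kept an adjusted p under 0.05 when each of the 10 mice was left out in turn. The call was lost by 27 without mouse 2 of 8 months, by 27 without mouse 5 of 10 months and by 21 without mouse 3 of 10 months.

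The summed levels of all 20 cell type marker lists, in CPM without normalization factors, overlapped between the ages. The summed level of the 16 ventricular cardiomyocyte markers was 65300 to 86900 CPM at 8 months and 65400 to 73800 CPM at 10 months, with the Z-disc gene Ldb3 higher (log2 0.63) and the M-band gene Myom1 lower (-0.51). The 10 fibroblast markers summed to 2430 to 2750 against 2160 to 2900 CPM and the 12 endothelial markers to 1390 to 1790 against 1510 to 1770 CPM. In the endothelial list Vwf, a blood clotting protein, rose by 0.74 while Kdr fell. Vwf lost its call without mouse 2 of 8 months or mouse 5 of 10 months (up to 0.0776). No marker of the lymphatic, mural, immune, erythroid, platelet, adipocyte, nerve and mesothelial lists was called. The summed haemoglobin and erythroid level reached 1490 CPM in 1 mouse of 8 months against at most 733 CPM at 10 months. Tnnc2, Gp1bb, Th, Sftpa1, Dntt and Rag1 were at 0 in all 10 libraries.

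The genes called at 10 against 8 months were then read in mice outside that contrast, a test chosen after levels at all ages were seen. The contrasts came from the same fit, in which all 50 libraries shared the estimate of each gene's spread, so the calls were not fully independent of these mice. At 14 against 12 months in FVB mice 1355 genes were called (8.96%), and 208 of the 330 lower genes were lower again (63%) and none higher, where 5.92% of all genes tested were lower. Of the 387 higher genes, 136 were higher again (35.1%) and none lower, where 3.03% of all genes were higher. The median log2 fold change at 14 against 12 months was -0.49 for the lower and 0.38 for the higher genes, and 0.02 for all genes. Hipk2 had a log2 fold change of -2.46 there (adjusted p = 2.56e-10), Nt5c1a -3.56 (2.28e-07), Ppara -1.96 (5.89e-07) and Wbp2 0.91 (0.000926), while Sbk3 had 0.03 (0.968).

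**Figure D4:**
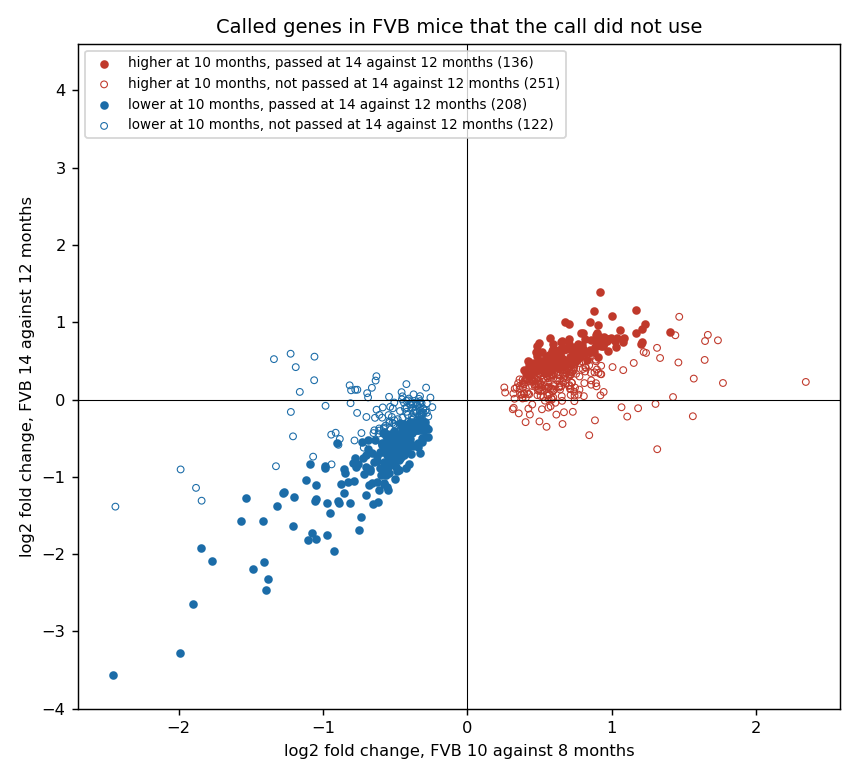
Log2 fold change at 10 against 8 months (x axis) and at 14 against 12 months (y axis) in FVB hearts for the 717 genes called at 10 against 8 months, 1 point per gene, from 5 mice per age and no mouse in both comparisons. At 14 against 12 months 304 of the 330 lower genes have a negative value and 359 of the 387 higher genes a positive one.

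The levels of the lower genes did not run in 1 direction with age. Of the 330 genes lower at 10 months, the FVB mean lay nearer the 8-month than the 10-month level for 248 at 4 months and for 282 at 12 months, but for 41 at 14 months. The 387 higher genes were nearer the 8-month level for 209 at 4 months, 280 at 12 months and 52 at 14 months. Hipk2 was at 190 to 295 CPM (median 236) at 4 months, at 220, 205, 199, 211 and 48.2 CPM in mice 1 to 5 of 12 months, and at 25.6 to 38.9 CPM (median 33.6) at 14 months. Mouse 5 of 12 months lay at the 10-month level and the other 12-month mice above the 8-month level. That mouse was the lowest of its group in 251 of the 330 lower genes (76.1%, against 27.3% of all genes) and the highest in 274 of the 387 higher genes (70.8%, against 24.9%). Single mice of other groups were also the highest in many of the higher genes. Examples were FVB mouse 5 of 14 months in 303 (78.3%, against 30.3%) and mouse 5 of 4 months in 268 (69.3%, against 31.8%). In no other FVB group outside the comparison was 1 mouse the lowest in more than 143 of the lower genes (43.3%, against 32.1%). Of the transgenic mice, mouse 2 of 14 months was the lowest in 182 of the lower genes (55.2%, against 22.9%). It was also the highest in 227 of the higher genes (58.7%, against 22.1%). Transgenic mouse 1 of 8 months was the lowest in 156 (47.3%, against 26.3%) but the highest in 54 (14%, against 23.9%). In the other transgenic groups no mouse was the lowest in more than 125 (37.9%, against 26.8%). Without FVB mouse 5 of 12 months, 228 of the lower genes were lower and 194 of the higher genes higher at 14 against 12 months. That mouse was singled out by its levels in these same genes, so leaving it out was bound to favour larger counts. In comparisons that share mice with the one described, 105 genes were called at 12 against 8 months (0.694%), 39 higher (0.258%) and 66 lower (0.436%), and 42 at 14 against 10 months (0.278%), 20 higher (0.132%) and 22 lower (0.145%).

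The contrast of the same age step in Tgαq*44 mice uses no FVB mouse, though it came from the same fit, and 896 genes were called there (5.92%). Of the 330 genes lower in FVB mice, 120 were lower (36.4%, against 3.37% of all genes) and 1 higher, and of the 387 higher genes 64 were higher (16.5%, against 2.55%) and 2 lower. Nt5c1a (log2 -2.52), Hipk2 (-1.33), Hif1an (-1.21), Cds2 (-0.78) and Lrrc15 (-1.47) fell in Tgαq*44 mice too. The difference between strains was -0.07 ± 0.31 for Hipk2 and -0.00304 ± 0.25 for Hif1an (adjusted p = 0.966 and 0.997).

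The change itself differed between FVB and Tgαq*44 mice in 19 genes (0.126%), more positive in FVB mice in 13 (0.0859%) and more negative in 6 (0.0397%), of which 8 were also called in FVB mice (Sbk3, Lum, Scgb1c1, Usp2, Zfp286, Cry2, Dgat2 and Acacb). The FVB calls of the deubiquitinase gene Usp2 (log2 0.54) and the zinc finger gene Zfp286 (-1.06) were lost without mouse 2 of 8 months (adjusted p = 0.0544 and 0.0522). Sbk3 rose in FVB mice and had a log2 fold change of -0.31 in Tgαq*44 mice (difference 1.74 ± 0.38, adjusted p = 0.0332). Dgat2 rose in FVB mice and fell by 0.60 in Tgαq*44 mice (difference 1.12 ± 0.20, adjusted p = 0.00648), and Acacb fell there by 0.36 (difference 0.71, adjusted p = 0.0332). Lum fell in FVB mice and rose by 0.36 in Tgαq*44 mice (difference -0.82 ± 0.15, adjusted p = 0.0084). Cytl1, a secreted cytokine-like protein, was flat in FVB mice at 29.3 ± 2.78 and 28.5 ± 7.83 CPM (SD, n = 5 each) and rose by 1.56 in Tgαq*44 mice (difference -1.60, adjusted p = 8.15e-05). The count of 19 was 7 without mouse 2 of 8 months, 8 without mouse 2, 9 without mouse 5, 10 without mouse 1 or mouse 3 and 41 without mouse 4 of 10 months, 11 without mouse 1 and 12 without mouse 4 of 8 months.

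Protein-coding genes made up 383 of the 387 higher genes (99%) and 298 of the 330 lower genes (90.3%), against 88.4% of the genes tested. Of 338 antisense genes tested 11 were lower (3.25%) and none higher, and of 239 genes of the provisional annotation class TEC 9 were lower (3.77%) and none higher, where 2.18% of all genes were lower. Whether reads were counted by strand is not given in the sources used here, so an antisense gene and its partner cannot be told apart. GC content and length were those of the longest transcript of each gene, a coding transcript where present. Coding genes that rose had a median GC content of 56.3% and a median length of 3428 bases. Those that fell had 50.4% and 5951 bases, and all coding genes tested 50.5% and 3198 bases. By GC content, 7.07% of genes between 55% and 60% rose and 0.575% fell, while between 45% and 50% 0.623% rose and 3.51% fell. With a spline on GC content as an offset, added after the data were seen, 587 genes were higher and 427 lower, among them 363 of the 387 and 236 of the 330.

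**Figure D5:**
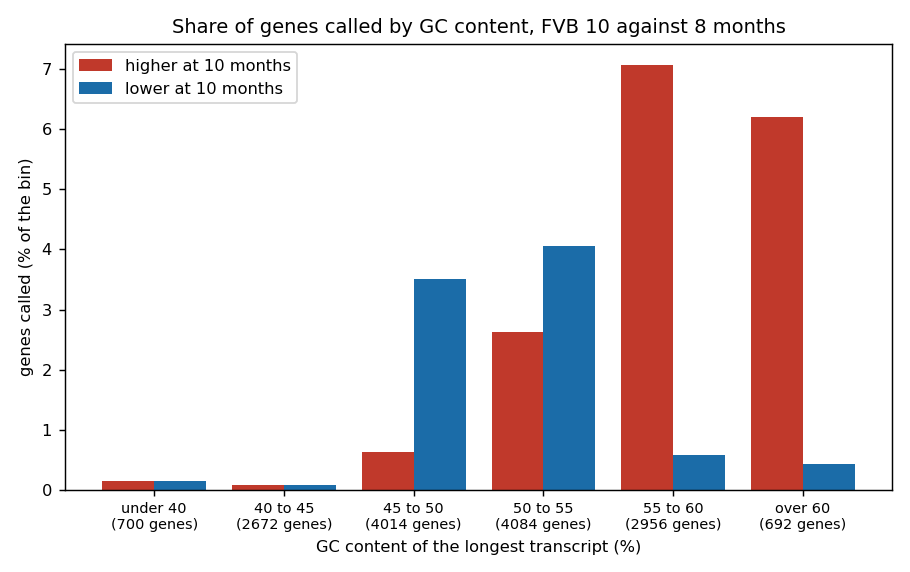
Share of genes called higher and lower at 10 against 8 months in FVB hearts (y axis, percent of the genes in the bin) by GC content of the longest transcript (x axis, percent). The higher share is largest between 55% and 60% GC, at 7.07%, and the lower share between 50% and 55%, at 4.06%.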

How the data were processed

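RNA-seq libraries of 50 mouse hearts were used, 5 per strain and age, grouped by title. The authors deposited whole-number read counts per gene, made from trimmed reads (Cutadapt, FastQC) aligned with STAR to GRCm38.p6 and counted over exons with HTSeq; no source used here gives tool versions or the strand setting. Tables of the authors' own comparisons (fold changes and p-values) were not used. No column of another series was present (0), and 0 pairs of libraries were identical.

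The filter kept 15129 genes, those above 0.5 CPM in over 3 mice of at least 1 group. TMM factors and edgeR 4.0.16's quasi-likelihood test (R 4.3.3), with 1 model of the 10 groups, gave the 10 against 8 month contrast in FVB mice and its difference from that in Tgαq*44 mice. Values per mouse are TMM-scaled CPM, except the summed marker levels, which are CPM without TMM factors. An adjusted p under 0.05 (Benjamini-Hochberg over all genes tested) was a call. DEGs also needed an absolute log2 fold change over 1, the thresholds of the study. Log CPM for the principal components used a prior count of 2. The scripts were tested on simulated data. Alternatives were limma-voom (limma 3.58.1), DESeq2 1.42.0, other filters, sample sets and normalizations, leaving out single mice, a block for mouse numbers, and offsets for GC content and length (natural splines with 5 degrees of freedom).

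Named were the 12 genes with the largest change in each direction among those called, with a mean of at least 1 CPM, no overlap of the groups and a symbol; up to 4 called members per pathway list, or 2 abundant members of a list with no call; and genes the study names. Results that name items withheld for evaluation are not reported here. Members and lists were chosen with earlier results of these data known. The labels give separate mice, so replicates are biological. Gene positions and GC content came from GENCODE vM21 (54495 of 54532 IDs matched), promoters from RefSeq.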

Additional observations from a re-analysis of the deposited data

Results flagged for a closer look

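Of 262 groups of 5 mice examined, 12 held a mouse far from the other 4 (4.58%), where chance gives about 1 in 20. At 8 months these were Lrrc15 in mouse 3 (51.4 CPM, next 44.2), Jun in mouse 5 (65 CPM, next 50), Gdf15 in mouse 5 (16.5 CPM, next 7.35), the interferon-induced GTPase gene Igtp in mouse 3 (275 CPM, next 83.1), the pericyte gene Rgs5 in mouse 1 (405 CPM, next 265), the α-globin gene Hba-a1 in mouse 5 (592 CPM, next 195), Pparg in mouse 2 (21.4 CPM, next 17.8) and, as the lowest, 2610507B11Rik in mouse 1 (444 CPM, next 491). At 10 months they were Nppa in mouse 5 (245 CPM, next 113), Pthlh in mouse 3 (3.14 CPM, next 1.62), the lymphatic factor gene Prox1 in mouse 4 (103 CPM, next 73.2) and the immunoglobulin gene Ighm in mouse 1 (24.3 CPM, next 15.4).

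The change from 8 to 10 months differed between FVB and Tgαq*44 mice, FVB minus Tgαq*44 on the log2 scale, in 19 genes by edgeR's test of the difference. Positive differences were those of Muc16 (3.69), Clcn1 (2.28), Sbk3 (1.74), Gnb3 (1.59), Scgb1c1 (1.34), Ces1d (1.34), 0610040J01Rik (1.3), Gm31663 (1.18), Dgat2 (1.12), Slc7a1 (0.904), Usp2 (0.876), Cry2 (0.753) and Acacb (0.712). Negative differences were those of Slc9a3 (-1.92), Zfp286 (-1.75), Cytl1 (-1.6), Syndig1 (-1.58), Lum (-0.822) and Dcn (-0.677). The adjusted p ran from 8.15e-05 for Cytl1 to 0.0489 for Cry2. Gnb3, a G protein β subunit, fell by 1.24 in Tgαq*44 mice and had a log2 fold change of 0.35 in FVB mice (adjusted p = 0.283).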

How the results depend on the processing

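No named gene that was called in the main result turned its direction under any of the 23 alternatives. Turns of named genes that were called in neither fit were not counted. The 717 genes called (387 higher, 330 lower) became 376 (241 and 135) with no filter on low counts, 301 (174 and 127) in a fit of the 10 libraries alone and 401 (218 and 183) in a fit of the 25 FVB libraries. The higher genes became 587 with the GC content offset, and with the mouse number as a replicate block 196 genes were lower and 400 higher. limma-voom called 395 higher and 334 lower genes, of which 361 and 313 were shared with the main result, and DESeq2 490 and 371. With each mouse left out the calls ran from 363 to 889, the higher from 161 to 577 and the lower from 177 to 337. The DEGs, 77 in the main result, became 51 (23 lower) with no filter on low counts and 45 (19 lower) with the 10 libraries alone. In the fit of protein-coding genes alone, which leaves out all other gene classes, 17 DEGs were lower, against 39 in the main result. With each mouse left out the DEGs ran from 43 to 101, the higher from 19 to 62 and the lower from 22 to 49. The 36 called list members became 19 with no filter, 19 with the 10 libraries alone and 12 to 40 with each mouse left out. The 19 genes that differed between strains became 60 with DESeq2, 11 with no filter, 37 with the GC content offset, 48 with the GC content and length offset and 7 to 41 with each mouse left out. The higher share of the calls was 54% in the main result, 64.1% with no filter, 67.1% with the replicate block, 64.9% without mouse 5 of 8 months, 64.8% without mouse 1 of 10 months and 43.8% without mouse 2 of 8 months. The fit with no filter adjusts over more genes, and fits of fewer libraries have fewer degrees of freedom; the cause of the other shifts was not tested. The mouse numbers do not pair the ages: the correlation of deviations between same-numbered mice ran from -0.25 to 0.351, and 3 of 5 mice (1, 3 and 5) correlated best with their own number, a hint from the data and not from the design. With the block Nppa (adjusted p = 0.197), Cry2 (0.106), Glul (0.0655), Cyp51 (0.0911), Acacb (0.241), Cacna1c (0.0583), Apln (0.0545), Rps2 (0.121) and Zfp286 (0.06) lost their calls. Of the named genes called, 4 lost the call with the GC content offset (Col14a1, Ndufa8, Acacb, Cacna1c), 5 with the GC content and length offset (Cry2, Col14a1, Lama4, Cacna1c, Fmod), 2 with limma-voom (Pthlh, Fmod), 19 with no filter on low counts, 24 with the 10 libraries alone and 13 with the 25 FVB libraries. The difference between strains was not fitted with the block. At 9998763 to 17644264 counts per library, low genes such as Pthlh and Zfp286 have wide spreads, so small changes of genes near 1 CPM may not be detectable at this depth.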
